A study of Bos taurus with 6 samples.

Results

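Coinciding bivalent sites are places on the bovine autosomes where the peak summits of H3K4me3 and H3K27me3 fell almost on top of each other in 2 lines of embryonic stem cells. A site is an H3K4me3 summit of line A on chromosomes 1 to 29 that had an H3K4me3 summit of line B within 1 kb and an H3K27me3 summit of each line at most 250 bases away. The rule found 1290 sites among 20908 H3K4me3 summits of line A, of which 19966 lay on autosomes and 18712 of those were shared with line B. The members were chosen by these distances, so the distances are given below as a description. The peak scores did not enter the rule beyond the threshold that put a peak on its list.

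The cells were blastocyst-derived bovine embryonic stem cells of lines A and B at passage 12, grown on mouse embryonic fibroblasts in CTFR medium with human FGF2 and the WNT pathway inhibitor IWR1, the same for both lines. Fibroblasts were taken off with magnetic beads before chromatin was made. Each line gave 1 library per mark, and the 2 input libraries were not analysed here. No test across samples can be made from 1 library per mark and line, and sites of a library are not replicates, so there are no p-values. Pairs of values below stand for line A first and line B second. The lists held 20908 and 21840 summits of H3K4me3, and 25225 and 20684 of H3K27me3, with no read counts, so the depth is unknown.

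Trimethylation of lysine 4 on histone H3 is written at promoters by SET1 and MLL complexes, which are drawn to unmethylated CpG islands. Trimethylation of lysine 27 is written by EZH1 or EZH2 within Polycomb repressive complex PRC2 and usually spreads over neighbouring nucleosomes. Promoters that carry both marks in pluripotent cells are called bivalent, and many belong to developmental regulators that are silent but can be switched on or shut down during differentiation. A summit is the base of a peak with the greatest pile-up of fragments. Separate libraries of many cells were compared, so summits at one place do not show both marks on 1 nucleosome. Which genes lie at the sites was not analysed here, and positions are those of the H3K4me3 summit of line A in the UMD3.1 assembly.

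The 1290 sites were 6.89% of the shared autosomal H3K4me3 sites (6.89% called, Wilson 95% interval 6.54% to 7.27%, counting error only). They were 41.8% (interval 40.1% to 43.5%) of the 3087 sites with H3K27me3 within 1 kb in both lines. Sites with both H3K27me3 summits within 1 kb but more than 250 bases away, called flanking here, numbered 814 (4.35% called). A further 983 sites had one line inside and the other outside 250 bases. No H3K27me3 summit of either line lay within 1 kb at 13872 sites, called unmarked here, and at 1753 only 1 line had one. The lists give summits only, so unmarked does not show that the mark itself is absent. Each of the 1290 sites had its own summit in all 4 lists, and no summit served more than 1 site. With line B as the anchor the same distances gave 1318 sites.

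The 250-base limit cut through a continuous range. Sites whose larger distance to H3K27me3 fell in the last 25 bases inside the limit numbered 104, and in the first 25 bases outside it 97. Their median H3K4me3 scores were 20.8 and 39.1 inside the limit, against 25.6 and 43.3 outside. The median H3K27me3 scores were 13.9 and 10.5 inside, against 14.4 and 10.5 outside. Sites on either side of the limit thus had much the same H3K27me3 scores.

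At the median site the 4 summits fitted within 164 bases. The span was at most 250 bases at 1014 sites (78.6%) and at most 100 bases at 341 (26.4%). The H3K4me3 summits of the lines lay a median of 53.5 bases apart, and the H3K27me3 summits 68 bases apart. The median distance between the marks was 70 bases for the summits of line A and 84.5 bases for those of line B. At 105 sites (8.14%) all 4 summits lay within 30 bases, and at 54 of these within 10.

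**Figure D1:**
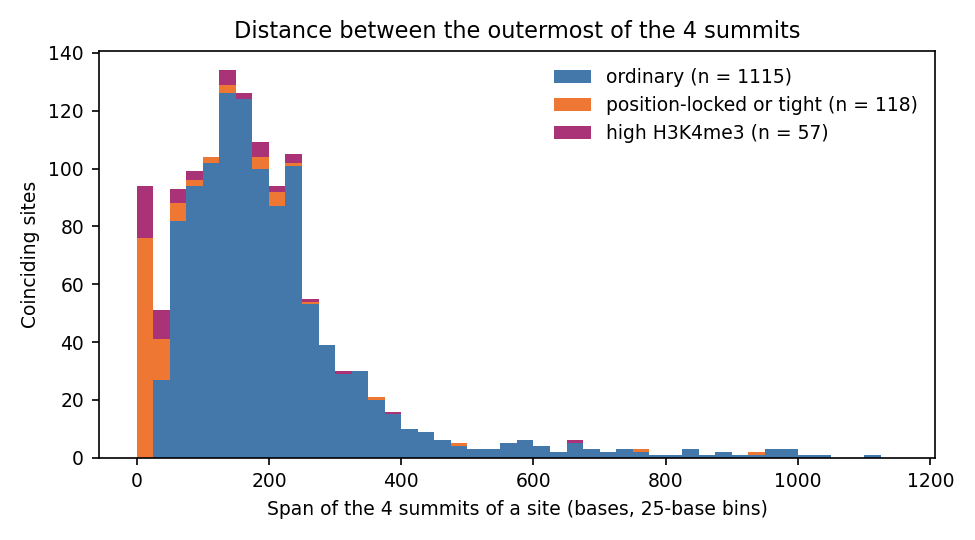
Number of coinciding sites (vertical axis) by the span from the first to the last of a site's 4 summits (horizontal axis, bases, bins of 25), stacked by the 3 groups described in the text. Most of the 1115 ordinary sites lie between 50 and 300 bases, and the bin nearest 0 holds mainly the 118 position-locked or tight sites and some of the 57 high sites.

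H3K27me3 scores of line A split the sites into populations with little between them, and those of line B did so less sharply. The deposited score is read as a −log10 p or q value of the peak caller. Of the 1290 sites, 1126 had an H3K27me3 score under 75 in line A, 155 had one of 200 or more, and 9 lay between. For line B the counts were 1154 under 75, 106 at 200 or more and 30 between, 21 of the last from the high group described next. Flanking sites also had few between. Of the 814, 779 and 781 were under 75, 25 and 23 at 200 or more, and 10 and 10 between. The share at 200 or more was 12.0% and 8.22% at coinciding sites and 3.07% and 2.83% at flanking sites. The limits of these bands and the groups below were set after the values were seen.

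A first group of 57 sites had an H3K4me3 summit among the 100 highest autosomal summits of either list and is called high. They were 4.42% of the coinciding sites, against 0.754% called over all shared sites. Of the flanking sites 3 of 814 were in the same class, and of the unmarked sites 75 of 13872. Coinciding sites filled the very top of the H3K4me3 lists. They made up 19 of the 20 highest autosomal summits of either line, and 42 and 43 of the 50 highest. Over the whole lists the share was 6.46% called for line A and 6.15% called for line B. Among the 100 highest there were 49 and 55, and among the 200 highest 51 and 57, so few were added past the first 100.

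The H3K27me3 partners of these sites were high in line A and less so in line B. Their score was 200 or more at 55 and 13 of the 57 sites, and under 75 at 2 and 23. The median H3K4me3 score of the 57 sites was 618 (range 15.3 to 3033) and 2494 (66.0 to 11465). The median H3K27me3 score was 1662 (10.6 to 8469) and 95.7 (7.69 to 912). As a percentile among the autosomal summits of its own list, H3K27me3 stood at a median of 99.6 (quartiles 99.0 to 99.8) and 78.7 (71.7 to 87.8). This percentile was higher in line A at 57 of 57 sites, against 869 of the 1115 ordinary sites defined below. H3K4me3 ranked at a median of 99.8 and 99.9, at the top of both lists.

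The scores of the marks followed each other within the high group in line A, and more loosely in line B. Over its 57 sites the Spearman correlation of H3K4me3 with H3K27me3 was 0.78 and 0.47, with Pearson values on log2 scores of 0.58 and 0.35. The sites of a run lie close together and share libraries, so these are descriptions without a p. The summits of the lines lay a median of 6 bases apart for H3K4me3 and 9 bases for H3K27me3. The 57 sites fell into 26 runs, a run being sites no more than 5 kb from the next, and 22 of them were on chromosome 27 and 9 on chromosome 4.

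The site that ranked high in all 4 lists at once before any other was on chromosome 27 at 26365152. Its H3K4me3 score was 1898 and 10755, and its H3K27me3 score 8469 and 912. All 4 summits lay within 31 bases, and its H3K27me3 summit of line A was the highest autosomal one of that list. The site on chromosome 2 at 83185935 scored 2807 and 8221 for H3K4me3 and 5792 and 462 for H3K27me3. It stood alone, with 1 H3K27me3 summit within 5 kb in each line, no other H3K4me3 summit of line A there, and the next summit of any list beyond 1 kb at 103 kb. The site on chromosome 17 at 4442433 scored 837 and 4831 for H3K4me3 and 2097 and 309 for H3K27me3. At all 3 sites H3K4me3 was the higher number in line B and H3K27me3 the higher in line A. The autosomal median scores of the lists were 38.6 and 59.25 for H3K4me3 and 11.4 and 13.2 for H3K27me3. The H3K4me3 difference thus ran the same way as the lists in general.

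The 3 longest runs of coinciding sites consisted mostly of high sites. On chromosome 27 a run of 11 sites at 23690918 to 23714344 had median H3K4me3 scores of 623 and 3277 and median H3K27me3 scores of 2601 and 153. A further run of 11 sites at 26348533 to 26368237 had medians of 1051 and 3166 for H3K4me3 and 1722 and 95.8 for H3K27me3. On chromosome 4 a run of 7 sites at 103642685 to 103654052 had medians of 532 and 2110 for H3K4me3 and 1413 and 137 for H3K27me3. A shorter run of 3 sites on chromosome 7 at 89223411 to 89227273 had 119 and 1251 for H3K4me3 and 1943 and 148 for H3K27me3. In these 4 runs the median distance between the lines was 2 to 17 bases for H3K4me3 and 4 to 29 bases for H3K27me3. The runs were not uniform. In the second run on chromosome 27 the H3K4me3 score of line A ranged from 6.84 to 2627.

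A second group, picked by the closeness of its summits, mostly had a strong H3K27me3 peak and a modest H3K4me3 peak. It held 118 sites outside the high group that either lay in a position-locked H3K27me3 region or had all 4 summits within 30 bases (tight). A region is a chain of pooled H3K27me3 summits of both lines up to 5 kb apart, and it is called position-locked if it has at least 5 summits in each line and a median distance between the lines of at most 30 bases. Such regions held 110 coinciding sites in all (8.53%, against 4.60% called over sites with H3K27me3 within 1 kb in both lines), 22 of them in the high group. They held 22 of the 814 flanking sites (2.70%). The site rule itself favours H3K27me3 summits that lie close between the lines, so these shares differ in part by that choice. The 4.60% also includes the coinciding sites.

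In this second group the median H3K27me3 score was 460 (range 8.33 to 3891) and 410 (3.59 to 3997). These put it at percentiles of 96.7 and 96.3, so that, unlike in the high group, the medians of the lines ranked alike. H3K4me3 was low, with medians of 28.5 and 14.8 and percentiles of 40.3 and 19.0. The H3K4me3 percentile was higher in line A at 100 of the 118 sites, against 428 of the 1115 ordinary sites and 335 of the 790 flanking sites that were neither high nor position-locked. The H3K4me3 summits of the lines lay a median of 5 bases apart and the H3K27me3 summits 2 bases. The group rule selects such closeness, and 84 of the 118 sites were tight, so these distances follow largely from the rule. The 30 tight sites outside position-locked regions were weaker for H3K27me3, with medians of 26.2 and 19.2.

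The site on chromosome 1 at 145302332 had 10 and 9 H3K27me3 summits within 5 kb. H3K27me3 scored 3423 and 3643 there, and H3K4me3 39.4 and 3.50. The site on chromosome 29 at 19574788, outside position-locked regions, scored 2971 and 2590 for H3K27me3 and 7.14 and 2.29 for H3K4me3, and all 4 summits lay within 4 bases. On chromosome 20 the site at 2987757 scored 316 and 305 for H3K27me3 and 10.1 and 4.71 for H3K4me3. The site on chromosome 6 at 88824523, whose span of 32 bases kept it just outside the group, scored 1288 and 1321 for H3K27me3 and 10.1 and 8.31 for H3K4me3. At these 4 sites the H3K27me3 percentile was at least 93.8 in both lists, while H3K4me3 stood at 0.124 to 9.66 in the list of line B. In line A it stood at 50.8 at the site on chromosome 1 and at 10.3 to 16.7 at the other 3.

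The remaining 1115 sites, 86.4% of all, are called ordinary. They lay on all 29 autosomes in 1086 runs, so most had no other ordinary site within 5 kb. The 790 flanking sites that were neither high nor position-locked lay in 767 runs. Only 1 H3K27me3 summit lay within 5 kb in each line at 280 (35.4%) of these and at 402 (36.1%) of the ordinary sites. H3K4me3 scored a median of 24.0 (quartiles 13.1 to 42.0) and 41.5 (22.8 to 69.3). H3K27me3 scored 14.0 (8.62 to 21.7) and 10.4 (6.57 to 16.5). Of these sites 1105 and 1107 had an H3K27me3 score under 75. Their 4 summits spanned a median of 175 bases, with 63 bases between the lines for H3K4me3 and 82 for H3K27me3.

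**Figure D2:**
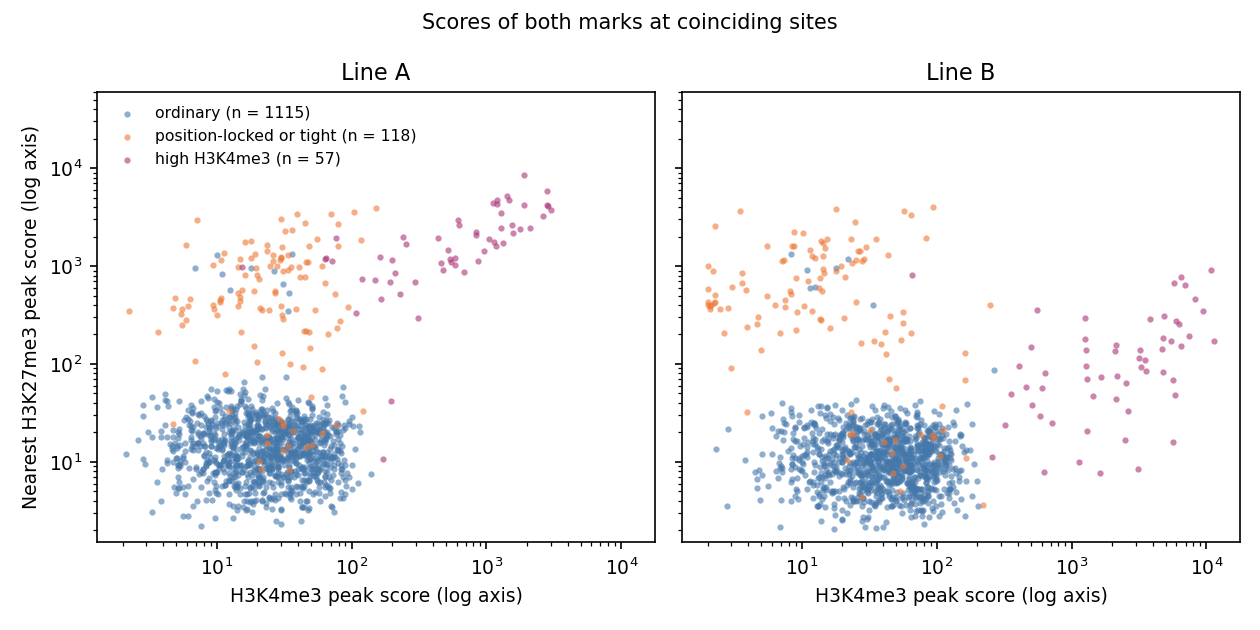
Score of the H3K4me3 summit (horizontal, log axis) against that of the nearest H3K27me3 summit (vertical, log axis) at the 1290 coinciding sites, 1 point per site, in line A (left) and line B (right), coloured by group. The 1115 ordinary sites form a cloud at low scores of both marks, the 118 position-locked or tight sites mostly lie above it, and the 57 high sites lie to the right and reach lower H3K27me3 scores in line B than in line A.

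Ordinary sites ranked low for H3K4me3 and near the middle for H3K27me3. Their median H3K4me3 percentile was 35.3 and 39.8, and their median H3K27me3 percentile 55.1 and 43.6. Flanking sites that were neither high nor position-locked (790 sites) stood at 36.7 and 40.3 for H3K4me3 and at 56.9 and 45.4 for H3K27me3. The quartiles of these classes overlapped almost completely. Unmarked sites stood higher for H3K4me3, at 60.0 and 63.3.

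Over all 1290 sites the median H3K4me3 percentile was 36.9 and 39.8. Coinciding minus unmarked sites it differed by -23.1 and -23.5 points, and coinciding minus flanking sites by 0.39 and -0.19 points. Both values moved when weak peaks were left out. With only summits above the median score of their own list kept, 182 sites remained, and the differences, as means of the lines, were -5.84 points from unmarked and 10.5 points from flanking sites. H3K4me3 was above the list median in both lines at 321 of the 1290 sites (24.9%, against 48.8% called over all shared sites) and at or under it in both at 765 (59.3%, against 39.1% called). For H3K27me3 the difference coinciding minus flanking was 0.36 and 0.46 points, and outside position-locked regions -0.95 and -0.72. Its sign turned with that choice, so no direction is given.

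**Figure D3:**
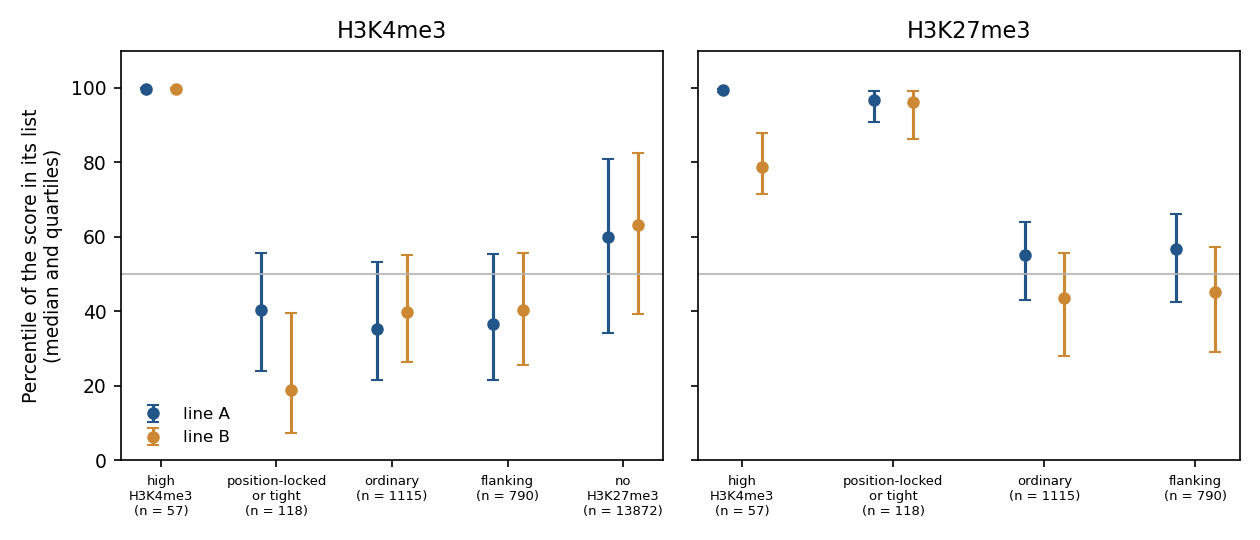
Percentile of the peak score among the autosomal summits of its own list (vertical axis), as median (point) and quartiles (bars) over sites, for H3K4me3 (left) and the nearest H3K27me3 (right), lines A and B. Ordinary and flanking sites overlap in both marks, and sites with no H3K27me3 summit within 1 kb are higher for H3K4me3. The median H3K27me3 percentile of the 57 high sites is 99.6 in line A and 78.7 in line B.

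Coinciding sites occurred at all strengths of H3K4me3, most often among weaker peaks. When each H3K4me3 list was divided by score into 10 equal bins, the coinciding share of shared sites in line A was 11.9% in bin 3 and 2.27% in bin 9. The list of line B, with its own summits as the anchor, gave 11.2% in bin 2 and 1.58% in bin 9. The top bin broke the decline, at 3.44% and 3.25%. Among sites with both marks in both lines, the coinciding share was 34.6% to 45.5% over the 9 lower bins of line A and 38.7% to 49.3% over those of line B. The top bin stood apart at 68.3% and 73.9%, and it held most of the 57 high sites.

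The H3K27me3 percentile changed little with H3K4me3 at ordinary sites. When the ordinary sites were divided by H3K4me3 into 5 equal bins, the median H3K27me3 percentile from the lowest bin to the highest was 56.3, 56.5, 53.4, 55.5 and 53.2 in line A. The values of line B were 45.5, 43.5, 43.9, 41.8 and 42.7. At flanking sites that were neither high nor position-locked it was lower in the top bin than in the bottom bin, at 48.9 against 62.9 for line A and 33.2 against 51.4 for line B. The Spearman correlation of the marks over ordinary sites was -0.06 and -0.08 (Pearson on log2 scores -0.06 and -0.10). Over those 790 flanking sites it was -0.27 and -0.22 (Pearson -0.27 and -0.19). The difference between the classes was not tested, and the quartiles of all bins overlapped.

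**Figure D4:**
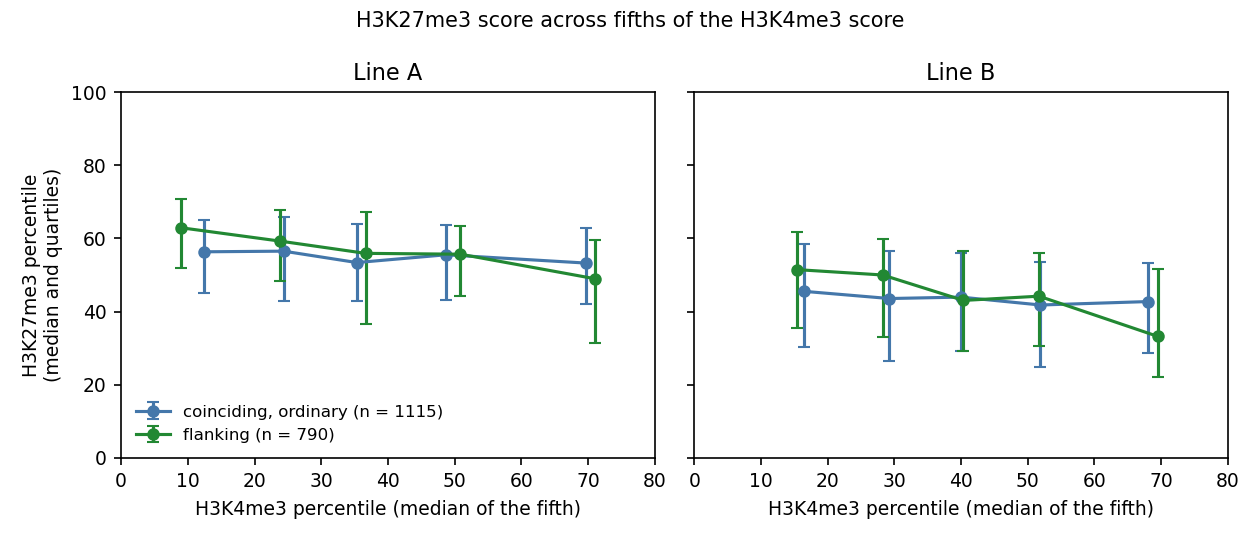
Median H3K27me3 percentile with quartiles (vertical axis) in 5 equal bins of sites by H3K4me3 percentile (horizontal axis, median of each bin) for the 1115 ordinary coinciding sites and 790 flanking sites, in line A (left) and line B (right). The ordinary sites stay between 53.2 and 56.5 in line A and between 41.8 and 45.5 in line B, while the flanking sites end lower than they start in both lines.

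The lines ranked the sites alike within each mark. Over ordinary sites the Spearman correlation between lines was 0.82 for H3K4me3 and 0.61 for H3K27me3 (Pearson on log2 scores 0.79 and 0.67). At the 790 flanking sites it was 0.84 for H3K4me3 and 0.66 for H3K27me3. Over the 13872 unmarked sites it was 0.88 for H3K4me3. The value for H3K4me3 was the higher one at both ordinary and flanking sites, and at the 57 high sites (0.94 against 0.62). At the 118 position-locked or tight sites it was the lower one, at 0.70 against 0.93.

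The side of the H3K4me3 summit on which H3K27me3 lay was only partly kept between lines. At 239 ordinary sites the H3K27me3 summit lay more than 100 bases from the H3K4me3 summit of its own line in both lines, and at 152 of these (63.6%) it lay on the same side. At flanking sites outside position-locked regions it did so at 610 of 726 (84.0%). The rule keeps H3K27me3 at coinciding sites within 250 bases of the H3K4me3 summit of line A, so the classes cannot be compared at equal offsets.

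Both marks were above the median of their lists in both lines at 126 coinciding sites (9.77%, against 7.42% called over sites with H3K27me3 within 1 kb in both lines), and at 102 of the 1180 outside position-locked regions (8.64%). Flanking sites gave 55 of 814 (6.76%), and 53 of 792 (6.69%) outside these regions. H3K27me3 alone was above the median in both lines at 512 coinciding sites (39.7%, against 37.2% called), and outside position-locked regions at 403 (34.2%). For flanking sites this was 327 of 814 (40.2%) and 305 of 792 (38.5%), so coinciding sites were not higher. H3K27me3 was in the highest 10% of both lists at 101 coinciding sites (7.83%, against 4.21% called), and at 24 (2.03%) outside position-locked regions. Flanking sites gave 21 of 814 (2.58%), and 7 of 792 (0.884%) outside these regions. The H3K27me3 summits of coinciding sites made up 16 of the 20 highest autosomal ones of line A and 9 of the 20 highest of line B, where the share over the whole lists was 7.30% called and 9.86% called.

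Some ordinary sites were lopsided without being extreme. On chromosome 7 the site at 22862246 scored 86.2 and 162 for H3K4me3, at percentiles of 86.4 and 89.6, and 4.24 and 2.82 for H3K27me3, at 15.8 and 3.08. On chromosome 16 the site at 22306990 scored 88.9 and 141 for H3K4me3 and 4.70 and 3.25 for H3K27me3. The sites on chromosome 2 at 95144964, chromosome 4 at 112970352 and chromosome 14 at 2563131 followed, with H3K4me3 scores of 82.4 to 139 in line A and 108 to 198 in line B. Their H3K27me3 scores were 4.25 to 7.54 and 4.51 to 6.34. At these 5 sites H3K4me3 ranked about 58.2 points or more above H3K27me3 in each line.

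Around the sites H3K27me3 came in small groups of peaks. Within 5 kb of a coinciding site there was a mean of 1.62 and 1.20 other H3K27me3 summits, and outside position-locked regions 1.23 and 0.846. Flanking sites outside these regions had 1.12 and 0.812. At 410 coinciding sites (31.8%, against 32.1% called) the coinciding H3K27me3 summit was the only one within 5 kb in both lines. By the H3K27me3 region to which the sites belonged, 409 sites had 1 summit per line, 656 had more but fewer than 5 in at least 1 line, and 115 lay in larger regions that were not position-locked.

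Outside position-locked regions, sites with a lone H3K27me3 summit had the stronger H3K4me3. The median H3K4me3 percentile was 42.1 and 47.6 at the 409 sites with 1 summit per line, 33.8 and 37.5 at the 656, and 26.4 and 33.3 at the 115. The 110 sites in position-locked regions stood apart from this order, at 42.6 and 22.3. Over the first 3 classes H3K27me3 went the other way, with percentiles of 49.7 and 40.0, 57.5 and 46.6, and 63.9 and 53.9. Flanking sites followed the same order, with H3K4me3 at 44.7 and 45.0, 36.5 and 40.9, and 19.7 and 21.4.

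Coinciding summits were often the strongest of their H3K27me3 region. Outside position-locked regions, 407 sites lay in regions with at least 3 H3K27me3 summits of line A, and at 208 (51.1%) the coinciding one had the highest score, where 18.2% of all summits of these regions did. For line B it was 130 of 305 (42.6%), where 18.6% did. At flanking sites the nearest H3K27me3 summit was the highest at 49.5% and 38.0%, close to the values of coinciding sites.

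At 1 to 5 kb the mean numbers of summits around coinciding and flanking sites were close, although at 1 to 1.5 kb coinciding sites had more H3K27me3. Outside position-locked regions there was a mean of 1.01 and 0.687 H3K27me3 summits at 1 to 5 kb from coinciding sites, 1.00 and 0.708 at flanking sites, and 0.106 and 0.0762 at unmarked sites. H3K4me3 summits at that distance numbered 0.367 and 0.415 at coinciding sites, 0.388 and 0.455 at flanking sites and 0.271 and 0.282 at unmarked ones. No other H3K4me3 summit of line A lay within 5 kb of 841 coinciding sites (65.2%, against 68.4% called). Within 500 kb there were a median of 12 other H3K4me3 summits of line A (quartiles 7 to 22) at coinciding sites, 13 (7 to 25) at flanking and 14 (7 to 28) at unmarked ones.

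**Figure D5:**
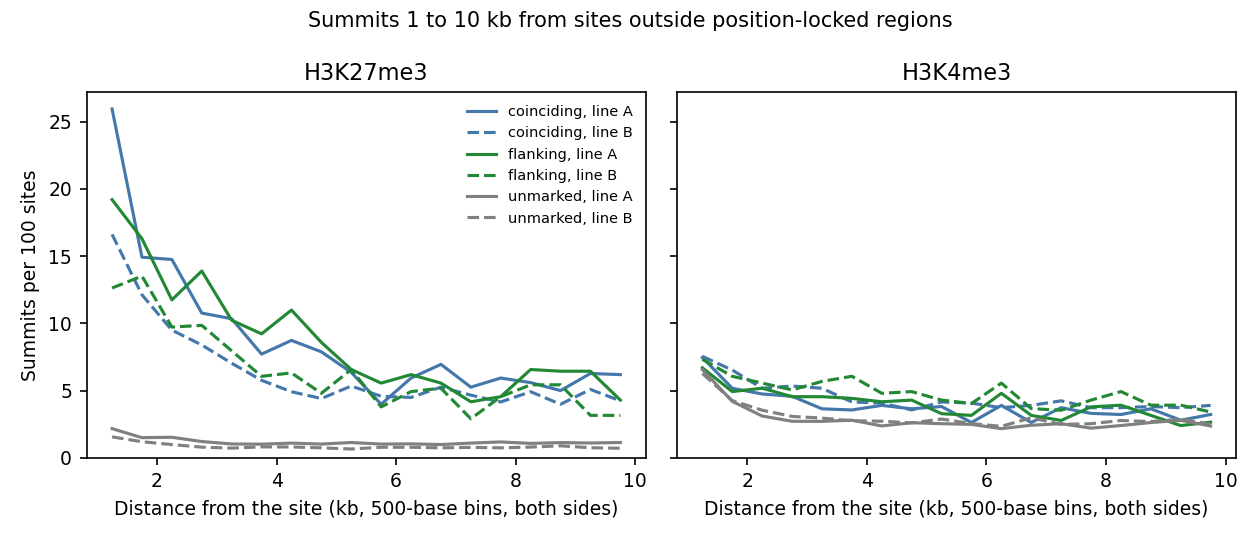
Summits per 100 sites (vertical axis) by distance from the site (horizontal axis, kb, bins of 500 bases, both sides together) for H3K27me3 (left) and H3K4me3 (right) around coinciding, flanking and unmarked sites outside position-locked regions, line A solid and line B dashed. At 1 to 1.5 kb coinciding sites have 25.9 and 16.6 H3K27me3 summits per 100 sites in lines A and B and flanking sites 19.2 and 12.6, and beyond it the H3K27me3 lines of these classes run close together above those of unmarked sites.

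Most coinciding sites had no other coinciding site within 5 kb. Of the 1290, 1164 (90.2%) had none, and 126 lay in 48 runs, of which 40 were pairs. At 841 of the 1290 (65.2%) no other H3K4me3 summit of line A lay that close, so these could have no such neighbour. The 90.2% was not compared with the share for shared sites in general, so it does not show whether the sites cluster or avoid each other. The longest run without a high or position-locked site was on chromosome 6 at 5531834 to 5540375, with 4 sites over 8.54 kb. Its H3K4me3 scores were 6.65 to 17.1 in line A and 17.4 to 53.8 in line B, and its H3K27me3 scores 34.0 to 44.1 and 24.2 to 35.6. A run of 3 on chromosome 15 at 82042764 to 82049142 had median H3K4me3 scores of 12.7 and 25.3 and median H3K27me3 scores of 26.4 and 18.6. On chromosome 1 the pair at 110286092 to 110289348 had 12.7 and 21.4 for H3K4me3 and 14.3 and 10.3 for H3K27me3. The medians of these 3 runs were under those of the runs on chromosomes 27 and 4. Single sites of the latter scored as low for H3K4me3 in line A, down to 6.84 in the second run on chromosome 27. For H3K27me3 in line A no site did. The lowest scores there were 998 and 514 in the runs on chromosome 27 and 679 in the run on chromosome 4. In line B single sites did score as low for H3K27me3. The lowest were 68.0 and 9.85 in the runs on chromosome 27 and 20.6 in the run on chromosome 4. The lowest in the run on chromosome 6 was 24.2.

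Outside chromosome 27 and position-locked regions, the site with the most H3K27me3 summits around it was on chromosome 8 at 61580231, with 7 within 5 kb in each line. That site itself was weak, at 9.85 and 15.0 for H3K4me3 and 4.80 and 8.16 for H3K27me3. On chromosome 1 the site at 1777284 had 7 and 6 such summits and scored 7.23 and 15.1 for H3K4me3 and 31.0 and 28.3 for H3K27me3. The H3K4me3 peak was weak at both of these sites. The sites on chromosome 27 that ranked before them had higher H3K4me3 scores. These were 1898 and 10755 at 26365152, 36.3 and 265 at 26375694, and 830 and 3831 at 26338897.

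Other sites had no summit of any list for a long way past the first kb. On chromosome 22 the site at 24380953 had its next summit of any list beyond 1 kb at 1105 kb. It scored 46.2 and 97.7 for H3K4me3 and 3.94 and 9.26 for H3K27me3. The site on chromosome 18 at 29862000 had its next at 989 kb and scored 36.5 and 46.6 for H3K4me3 and 15.7 and 7.89 for H3K27me3. Those on chromosome 27 at 39232664, chromosome 23 at 4709441 and chromosome 6 at 24377584 had theirs at 603, 466 and 435 kb. The sites on chromosomes 22 and 18 had a second H3K27me3 summit of line A within 1 kb, and the other 3 had none. At these 5 remote sites the H3K4me3 scores were 21.7 to 72.1 and 34.6 to 107, within the range of other ordinary sites.

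By chromosome, coinciding sites made up a median of 6.47% of the shared H3K4me3 sites, from 3.91% on chromosome 25 to 20.3% on chromosome 27. Chromosome 6 came next at 10.5%. A pair of stretches held 26 of the 52 sites on chromosome 27, namely 11 of 13 shared sites at 23690918 to 23714344 and 15 of 17 at 26338897 to 26376293. They were placed around the runs of coinciding sites named above, so their high shares follow in part from that choice. Without these stretches 26 of 226 sites (11.5%) coincided there. Among ordinary sites alone the share ranged from 3.25% on chromosome 25 to 11.5% on chromosome 27 around a median of 6.10%, so chromosome 27 ranked first with and without the extreme sites.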

How the data were processed

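The submitters' processing notes name BWA, MACS2 and the UMD3.1 build, without versions. Each library has its own deposited summit list. Filters, the use of the inputs and the calling mode are not given in the sources used here. Per the file columns, the deposited position covers 1 base, and the deposited score was read as a −log10 p or q value because no list went below 2. Whether it is p or q is unknown. A score moves with depth, so it was also given as a percentile, the percent of autosomal scores of the same list at or below it.

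Nearest summits, classes, regions and runs were computed in Python 3.11.15 with pandas 2.3.3, numpy 2.4.6 and scipy 1.17.1, drawn with matplotlib 3.10.9, and tested on simulated lists with planted sites. Regions were named by position, 5 for each of these orders with 1 per run: highest lowest-percentile over the 4 lists, most H3K27me3 summits within 5 kb, most sites per run, widest percentile gap between the marks in either direction, and greatest distance to the next summit. Each order was made outside position-locked regions, the first 3 also over all sites, and the text gives part of them. The members and classes were chosen with earlier results of these data known, and the high, tight and ordinary groups after the values were seen. Genes and sequences were not analysed here.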

Additional observations from a re-analysis of the deposited data

Results flagged for a closer look

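Signal outside the measured autosomes met the same distances. On the X chromosome 190 sites did, which was 25% of its 760 shared H3K4me3 sites and 41.9% of the 453 with H3K27me3 within 1 kb in both lines, the latter near the 41.8% on autosomes. Their median scores (line A first) were 20.0 and 36.0 for H3K4me3 and 8.83 and 7.89 for H3K27me3. Of them 4 lay in position-locked regions and 5 had all 4 summits within 30 bases.

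On unplaced sequences 9 of 40 shared H3K4me3 sites met the distances, on 9 sequences. Their 4 summits spanned a median of 13 bases. The median H3K27me3 score was 491 for line A and 547 for line B, and the median H3K4me3 score 16.6 and 16.1.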

How the results depend on the processing

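The 13 results were recomputed, each under the settings that bear on it, with 16 settings chosen at the outset and 3 chosen after seeing the data (without tight sites, without the 100 highest H3K4me3 summits of either list, and ordinary sites only). Of 201 recomputed values 138 stayed, 58 moved and 5 reversed a difference that was larger than the spread between the lines. The H3K4me3 percentile of coinciding minus flanking sites, 0.102 points and within that spread, also changed sign under 7 settings. It was 2.20 with a limit of 100 bases, 10.5 with only the upper scores of each list and -1.11 with a sharing distance of 500 bases. For the values that moved or changed sign the cause was not tested. Percentile differences and numbers of other summits are means of the lines.

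The H3K27me3 percentile of coinciding minus flanking sites, 0.409 points, had no stable sign. It was -1.38 with a limit of 500 bases, -0.835 without position-locked regions, -1.15 without tight sites, -0.407 without the 100 highest, and -1.77 with ordinary sites only. It was 4.45 with a limit of 100 bases, 5.22 with only the upper scores of each list (above its median), 1.36 anchored on line B, 0.900 with H3K4me3 summits merged within 1 kb, 1.13 and 0.937 with sharing distances of 500 bases and 2 kb, and 0.145 with the X added. The H3K4me3 percentile of coinciding minus unmarked sites, -23.3 points, kept its sign throughout. It was -21.8 with a limit of 100 bases, -24.4 with merged summits, -22.9 anchored on line B, -23.7 with a sharing distance of 500 bases, -24.4 without the 100 highest, -23.9 with ordinary sites only, and -5.84 with upper scores only.

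The number of sites, 1290, became 544 and 2144 with limits of 100 and 500 bases and 182 with upper scores only. The number of runs, 1212, became 505, 1988 and 152, and the median percent per chromosome, 6.47, became 2.72, 12.0 and 1.58. The median distance between the H3K4me3 summits of the lines, 53.5 bases, became 35 with a limit of 100 bases and 28.5 with upper scores only. The count in position-locked regions, 110, became 24 with upper scores only and 46 without tight sites. The mean number of other H3K27me3 summits within 5 kb, 1.41, became 1.92 with a limit of 100 bases, 1.04 without position-locked regions, 0.944 with ordinary sites only, and 2.34 within 10 kb.

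With 1 library of a mark left out, the number of sites ranged from 1491 to 2523, the runs from 1378 to 2334, the percent per chromosome from 6.83 to 13.2, the sites in position-locked regions from 114 to 260, the other H3K27me3 summits from 1.12 to 1.84, the H3K4me3 difference from -25.3 to -21.1 points, and the H3K27me3 difference from 0.134 to 2.95 points. The highest counts of sites and runs came without the H3K27me3 library of line B (2523 and 2334), and the 260 came without the H3K4me3 library of line B. Position-locked regions were still drawn from the H3K27me3 summits of both lines in each of these settings. No paired analysis was possible because no result comes from a test. The percentile differences were taken within each line. Depth is unknown, so a missing summit may lie below the calling threshold.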

Other observations

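The widest autosomal H3K27me3 regions in which the lines lay a median of over 100 bases apart (5 or more summits per line) held the following coinciding sites. On chromosome 25 at 2589210 to 2675654, 1 of the 8 shared H3K4me3 sites within 1 kb of the region's H3K27me3 summits coincided and none was flanking. On chromosome 18 at 64189812 to 64244295 it was 1 of 6. On chromosome 4 at 69341100 to 69413727 none of 2 coincided and 1 was flanking. The regions on chromosome 19 at 38544455 to 38605570 and chromosome 8 at 62140799 to 62188499 had no such H3K4me3 site.

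At 10 ordinary sites the H3K27me3 score was 200 or more in line A, and at 7 in line B. One of them, on chromosome 13 at 63819235, scored 834 and 910 for H3K27me3 and 10.9 in both lines for H3K4me3, with a span of 35 bases, just past the limit of 30 bases that defines the second group.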
